A study of Homo sapiens with 8 samples.

Results

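K562 and KBM5 are human cell lines from chronic myeloid leukaemia, a disease driven by the fusion kinase BCR-ABL1. They were compared with each other here over all 8 arrays of the series, 4 of K562 and 4 of KBM5. Each K562 array was set against the KBM5 array with the same treatment label, which gave 4 pairs. The rule that formed the groups used the labels alone and no measured value. The comparison covered 17687 genes named by a symbol, and it asks which lineage, surface, signalling and silenced genes separate the lines whatever drug was given.

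The 4 treatments of each line were a control without drug, the demethylating agent OR21 at 100 nM for 3 days, IM (imatinib, an inhibitor of the BCR-ABL1 kinase) at 1000 nM with RNA taken after 24 hours, and the combination, in which OR21 came first. The combination's label gives no OR21 dose, and the dose of the treatment protocol was taken for it. Both lines were kept in the same serum-containing medium (RPMI-1640), and biotin-labelled total RNA was hybridised to expression arrays. Each group is 1 line on 1 array per treatment, so nothing here measures the spread between repeat cultures of a treatment. The p-values measure only how evenly the difference between the lines held over the 4 treatments, and they treat a drug response that differed between the lines as error.

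Blood cells of the erythroid branch make hemoglobin from globin chains and heme under the transcription factors GATA1, KLF1 and TAL1. Cells of the granulocyte and monocyte branch depend on SPI1 (PU.1), CEBPA and IRF8 and store proteases in granules. K562 is known as a line that can be driven towards the erythroid branch, and both lines derive from blast crisis, the acute phase of the disease.

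Values are linear intensities of 1 probe set for each gene, and differences are K562 minus KBM5 on the log2 scale, with the standard error of the fit. Intensities of a line are listed in the order control, OR21, IM and combination throughout. Background was set for each array at the level that 95% of its 612 negative control probe sets stay under. It lay between 161 and 186 on the K562 arrays and between 189 and 263 on the KBM5 arrays, with the highest value on the KBM5 control array. Per array, between 5874 genes (KBM5 control) and 7083 genes (K562 with OR21) were above it. Where a gene was above background in 1 line and on no array of the other, its fold is a bound ("at least"), taken against the background of the other line. A fitted log2 difference or a median that includes such values is no bound, since it uses signals under background. With every value raised to the background of its array, the median difference over all genes was -0.33, because the KBM5 backgrounds are higher. Precision is limited by how few arrays there are.

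Marker genes were set against the lines first. Of 4 erythroid markers, 3 were above background on all K562 arrays and all 4 were at background in KBM5. Of 7 granulocyte and monocyte markers, 4 were above background on all KBM5 arrays and 1 on all K562 arrays. No megakaryocyte, mast cell, progenitor, B-cell or T-cell marker was above background on all 4 arrays of either line, while 2 of 3 epithelial markers and 1 of 2 fibroblast markers (COL1A2, near background in both lines) were so in K562.

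The lines stood far apart in expression. Of 17687 genes, 5664 were called different at an adjusted p under 0.05 (limma with the treatment as a block, Benjamini-Hochberg over all genes), which is 32 percent. Of these, 3010 genes were higher in K562 (17 percent of all genes) and 2654 were higher in KBM5 (15 percent). The difference had 1 sign in all 4 pairs for 5634 of the called genes. An unadjusted p under 0.05 was reached by 7178 genes. The share of called genes depended on brightness: it was 47.1% of the 4660 genes above background on all 8 arrays and 10.8% of the 9227 genes at background on all 8. The 995 called genes of the latter kind have no measured level in either line and are given no fold.

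Many genes were measured in 1 line alone. Above background on all 4 K562 arrays and on no KBM5 array were 499 genes (2.82 percent of those tested), and 317 genes (1.79 percent) showed the reverse; with background at the 99th percentile of the negative controls these were 224 and 155, and at their median 168 and 89. The KBM5 backgrounds are higher, which makes the K562 kind easier to reach. Of the 499 genes, 17 were not called, and of the 317 genes, 0. With each value first raised to the background of its array, 239 genes (1.35 percent) were at least 4-fold higher in K562 in all 4 pairs, and 262 genes (1.48 percent) were at least 4-fold higher in KBM5. With background at the 99th percentile, these counts were 64 and 43. The smallest pair difference of 26 genes lay just inside the 4-fold limit, within 0.05 on the log2 scale, and that of 24 genes just as close outside it. At the other end, 671 genes above background on all 8 arrays stayed within 1.5-fold in every pair.

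**Figure D1:**
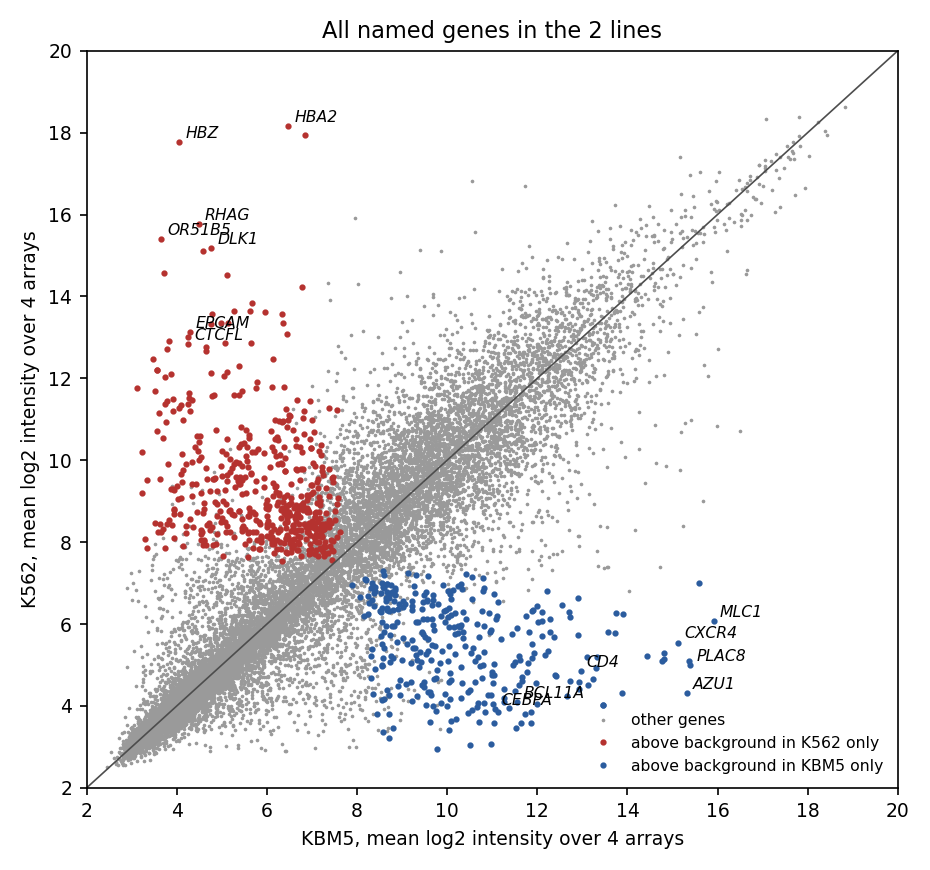
Mean log2 intensity of each named gene over the 4 KBM5 arrays (x axis) and the 4 K562 arrays (y axis). Each point is 1 gene, and the line marks equal values. The 499 genes above background in K562 only (red) lie above the line, led by HBA2, HBZ and RHAG, and the 317 genes above background in KBM5 only (blue) lie below it, with MLC1, CXCR4, PLAC8 and AZU1 at the far right.

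Among the genes with the widest smallest-pair difference, K562 carried red cell genes together with genes of other programmes. The first by that order was HBA2, followed by HBA1, HBZ and RHAG. OR51B5, an olfactory receptor gene that lies among the beta-type globin genes, read 38074, 43106, 44612 and 48257 in K562 and between 10.3 and 17 in KBM5, at least 200.0-fold apart. DLK1, an imprinted gene whose protein is a Notch-like ligand, read 41184, 23455, 52911 and 36978 in K562 and 38, 21, 23 and 29 in KBM5. The glycolytic enzyme HK1, hexokinase, read 18757, 20354, 31871 and 29174 in K562 and 7.0, 8.5, 13 and 37 in KBM5, so its probe set was at background on all 4 KBM5 arrays. MFGE8, a secreted glycoprotein, read 14748, 14462, 14547 and 14821 in K562, at least 68-fold above KBM5. NMU (the peptide neuromedin U), CMBL, ECI2, ACSM3, BLVRB (biliverdin reductase B), PRKAR2B and IFITM1 completed the K562 side. These genes were chosen by a wide difference in every pair, so the separation of their arrays by line is no further result.

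On the KBM5 side the order was led by MLC1, a membrane protein best known from astrocytes. Its probe set read 50039, 85999, 53305 and 63583 in KBM5 and between 43 and 91 in K562, at least 358-fold apart. CA2, carbonic anhydrase 2, read 38449, 44154, 53395 and 64671 in KBM5 and 125, 133, 145 and 114 in K562. No K562 array measured either gene, and each gene's 4 KBM5 values lay within 2-fold of each other. PLAC8 read 26221, 21755, 80182 and 74192 in KBM5 and 26, 37, 36 and 31 in K562, and MYO1F, a myosin of myeloid cells, read 13618, 14853, 60674 and 54737 and 54, 47, 29.6 and 31. For both of the latter the KBM5 arrays with IM were the higher ones. IGFBP7, PARP8, AIF1, KCNAB2, LYST, LAT2 and ALOX5AP (the 5-lipoxygenase activating protein) were further genes of this side, beside the granule proteases and CXCR4 described below.

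Of the 31 gene lists, the globins had the widest median difference. Of 9 measured members of the globin list, 7 were called higher in K562 and 0 in KBM5, and the median difference was 8.01 (5.87 with values raised to background), against -0.04 over all genes. HBZ, the embryonic alpha-type chain, read 58796, 193282, 467477 and 473566 in K562 and 17, 28, 15 and 11 in KBM5, a log2 difference of 13.72 ± 0.61 (SE, adjusted p = 1.55e-05, limma) and at least 1033-fold. HBA2, an adult alpha chain, read 89320, 311133, 524909 and 499975 in K562 and 149.6, 77, 55 and 98 in KBM5. HBA1 encodes the same protein as HBA2, and its probe set may read both genes, so the pair counts as uncertain. HBE1, the embryonic beta-type chain, read 6827, 21391, 86338 and 123758 in K562 and 22, 32, 27 and 18 in KBM5. HBB, the adult beta chain, read 2396, 4551, 43915 and 54465 in K562 and 47, 49, 69 and 37 in KBM5. In each of these genes the K562 control array was the lowest of the K562 arrays, both arrays with IM were the highest, and all 4 KBM5 arrays were at background. The minor chains HBD (at least 2.4-fold) and HBQ1 (at least 1.3-fold) were also called, with HBD above background on 3 of 4 K562 arrays. AHSP, the chaperone of alpha chains, was not called (log2 difference 2.79 ± 1.00, adjusted p = 0.0788), and it read 8.5, 37, 199 and 828 in K562. Without the control pair it was called, with an adjusted p of 0.0124 (limma). The fetal gamma chains were not analysed here.

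**Figure D2:**
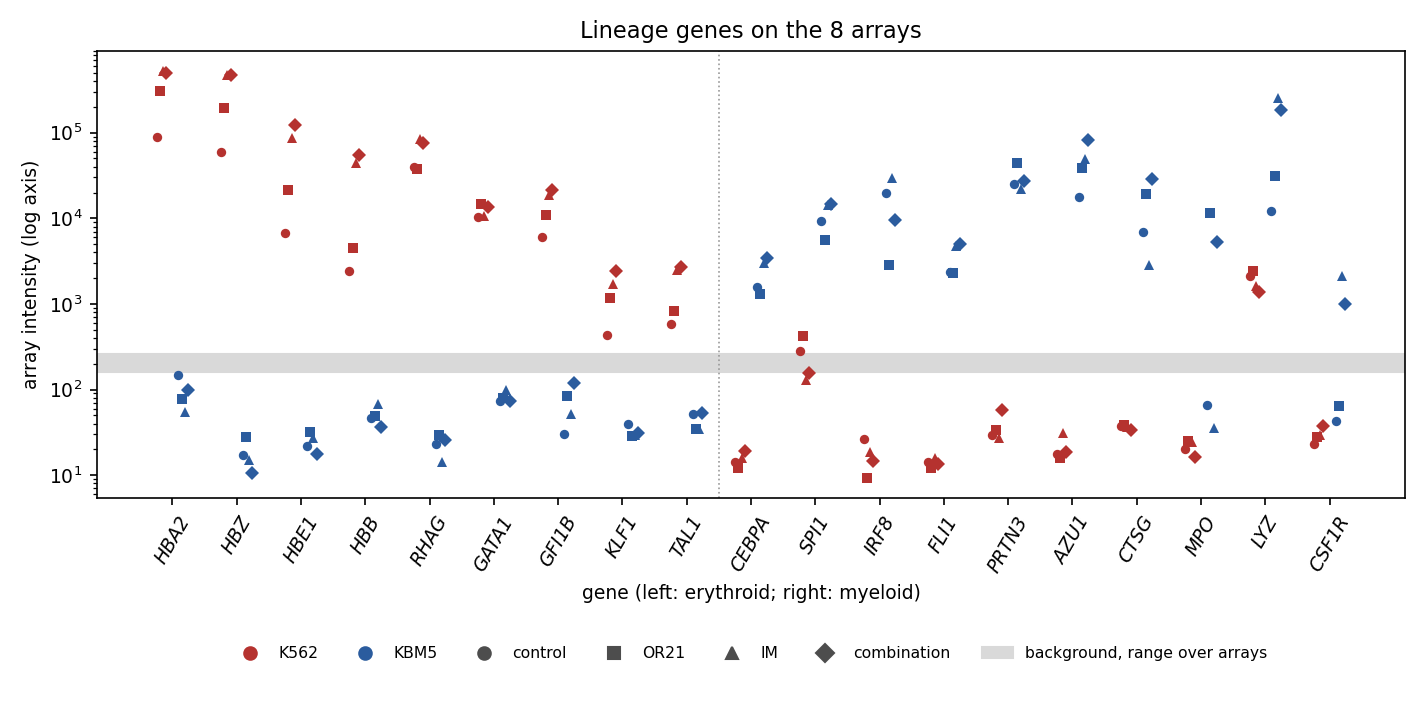
Intensity (log axis) of 19 lineage genes on each of the 8 arrays, red for K562 and blue for KBM5, with 1 symbol shape for each treatment. The grey band spans the background of the 8 arrays. The 9 erythroid genes at the left lie above the band in K562 and below it in KBM5, and the 10 myeloid genes at the right are higher in KBM5, where MPO and CSF1R are above the band on 2 arrays each.

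The heme pathway and the red cell membrane followed the globins. Of 20 measured genes of heme synthesis and iron handling, 14 were higher in K562 and 1 was higher in KBM5, with a median of 2.05 (1.37 with values raised to background). ALAS2, the erythroid form of the first enzyme of heme synthesis, read 383, 4611, 75928 and 90007 in K562 and stayed between 28 and 42 in KBM5. The 1 member higher in KBM5 was ALAS1, the form of that enzyme used by other tissues, which read 329, 293, 149 and 185 in K562 and 1726, 2799, 4556 and 4059 in KBM5 (log2 difference -3.76 ± 0.42, adjusted p = 0.000687, limma). The 2 forms of the enzyme therefore went opposite ways between the lines. UROD, uroporphyrinogen decarboxylase, was 38-fold higher in K562, with 25370, 27431, 46301 and 48355 against 1078, 1149, 651 and 918. FECH, the enzyme that inserts iron into heme, differed by 0.79 in the control pair and by 6.47 in the IM pair. Its call was lost without the IM pair (adjusted p = 0.0502) and without the combination pair (0.0662). TFRC, the transferrin receptor that brings iron into the cell, was called at 2.37 ± 0.72 but lost the call in 6 of 11 alternatives.

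Of 27 measured red cell membrane and blood group genes, 19 were higher in K562 and 1, CD47, was higher in KBM5, with a median of 3.39 (1.54 with values raised to background). RHAG, the Rh-associated glycoprotein, read 39886, 38042, 85336 and 76833 in K562 and 23, 29, 14 and 26 in KBM5, at least 259-fold apart. The membrane skeleton genes ANK1 (ankyrin) and ADD2 (beta-adducin) read 5015, 4700, 17635 and 13279 and 1213, 2442, 15887 and 21942 in K562, and at most 110.1 and 101 in KBM5. KEL, which carries the Kell blood group, read 870.4, 2173, 33132 and 28322 in K562 and 26, 27, 23 and 25 in KBM5. RHD read 782, 5524, 7217 and 13396 in K562, but its sequence is close to that of RHCE, so the 2 probe sets may share signal. EPB41, protein 4.1, was above background on all arrays and 4.9-fold higher in K562. ADD2, KEL and ALAS2 had their lowest K562 value on the control array and the higher ones with IM.

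The erythroid transcription factors were split. Of 17 measured, 7 were higher in K562 and 4 in KBM5, with a median of 0.36. GATA1 read 10445, 14713, 10621 and 13517 in K562 and 73, 79, 98 and 74 in KBM5, a log2 difference of 7.25 ± 0.20 (adjusted p = 3.37e-06, limma) and at least 56-fold. GFI1B, a repressor needed for red cells and platelets, read 6001, 10940, 18498 and 21270 in K562 and 29.8, 83, 51 and 119 in KBM5. KLF1, the activator of adult beta-globin, read 429, 1168, 1721 and 2453 in K562, and TAL1 read 585, 831, 2471 and 2695, while both were at background on all KBM5 arrays. LDB1, the bridging protein of the GATA1 and TAL1 complex, was above background in both lines and 8.5-fold higher in K562. The 4 factors higher in KBM5 were BCL11A, IKZF1, MYB and FOXO3. BCL11A, the repressor of fetal globin, read 17, 14, 24 and 15 in K562 and 3208, 2001, 3956 and 3176 in KBM5, at least 17-fold higher in KBM5. MYB, a factor of dividing progenitors, read 17919, 16576, 4221 and 4442 in K562 and 36722, 57208, 43967 and 52650 in KBM5. Its K562 values fell into a higher pair without IM and a lower pair with IM, so its pair differences ran from -1.04 (control) to -3.57 (combination). EPOR, the erythropoietin receptor, was called at 1.79 ± 0.46 and above background on 3 of 4 K562 arrays, and its call was lost in 4 of 11 alternatives.

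The fetal gene list of 10 measured genes had 6 higher in K562, 1 of them at background on all arrays, and 0 in KBM5. IGF2BP2, an RNA-binding protein of fetal cells, read 1672, 1572, 1828 and 1662 in K562 and 75, 46, 49.5 and 125 in KBM5. LIN28B, which blocks the let-7 microRNAs, read 1422, 911, 296 and 266 in K562 and 159, 146, 89 and 96 in KBM5. IGF2BP1 was above background on all 8 arrays and 5.8-fold higher in K562.

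Of 26 measured myeloid transcription factors, 13 were higher in KBM5 and 0 in K562, with 1 of the 13 at background on all arrays. The other 13 were not called, and 10 of the 26 were at background on all arrays. The share called was thus 50%, against 32 percent of all genes. CEBPA, which starts the granulocyte programme, read 1593, 1305, 3033 and 3397 in KBM5 and 14, 12, 16 and 19 in K562, a log2 difference of -7.16 ± 0.21 (adjusted p = 3.76e-06, limma) and at least 12-fold higher in KBM5. SPI1 read 9209, 5619, 14331 and 14862 in KBM5 and 279.7, 423, 131 and 156 in K562, where the arrays without IM were above background and those with IM below. IRF8, a factor of monocytes and dendritic cells, read 19984, 2834, 29304 and 9677 in KBM5 and 27, 9.3, 18 and 15 in K562. Both KBM5 arrays with OR21 were lower for IRF8 than the KBM5 arrays without it. GFI1, the relative of GFI1B used in granulocytes, read 3216, 8304, 13100 and 12002 in KBM5 and 499.7, 560.0, 1113 and 727 in K562, so GFI1 and GFI1B went opposite ways between the lines.

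Granule proteins followed the same direction. Of 36 measured, 15 were higher in KBM5 and 1, the protease CTSH, was higher in K562, while 19 were at background on all 8 arrays. Called in either direction were 44.4%, against 32 percent of all genes and 42.3% of the housekeeping controls. AZU1, azurocidin, read 17749, 38589, 49482 and 82396 in KBM5 and 18, 16, 31 and 18 in K562, at least 237-fold apart and a log2 difference of -11.00 ± 0.34 (adjusted p = 4.4e-06, limma). PRTN3, proteinase 3, read 25245, 44586, 21917 and 27502 in KBM5 and 29.6, 33, 27 and 57 in K562, at least 166-fold apart. CTSG, cathepsin G, read 6992, 19153, 2837 and 28746 in KBM5, and the ribonuclease RNASE2 read 4836, 18751, 15676 and 37438, with K562 values no higher than 38 and 25. LYZ, lysozyme, was above background in both lines, with 12342, 31218, 254951 and 185905 in KBM5 and 2112, 2431, 1611 and 1388 in K562. For LYZ the difference was 2.55 in size in the control pair and 7.31 in the IM pair.

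MPO, the peroxidase that defines granulocyte precursors, behaved differently from its neighbours in the list. It read 66, 11442, 36 and 5282 in KBM5 and 20.04, 25, 24 and 16 in K562, so it was above background on the 2 KBM5 arrays with OR21 and on no other. Its call (log2 difference -4.87 ± 1.45, adjusted p = 0.0418, limma) was lost without the OR21 pair (adjusted p = 0.135), without the combination pair (0.156), without the treatment block (0.0656) and with a pseudocount of 16 (0.104). CSF1R, the receptor of macrophage growth factor, read 43, 64, 2101 and 1005 in KBM5 and was above background on the 2 arrays with IM. Its call was lost without the IM pair (adjusted p = 0.0905), without the combination pair (0.122) and in 2 other alternatives.

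Receptors and other proteins of monocytes and granulocytes were higher in KBM5 for 23 of 58 measured genes and in K562 for 1 (CD24, at background on all arrays), and 5 of the 24 called genes were at background on all arrays. The share called was 41.4%, against 32 percent of all genes and 42.3% of the housekeeping controls. TYROBP, the signalling partner of many myeloid receptors, read 4938, 21408, 48515 and 106081 in KBM5 and 123, 172, 159.9 and 229.7 in K562. ANPEP (CD13) read 2069, 9376, 5470 and 12216 in KBM5, and FCGR1A, the high-affinity IgG receptor, read 585, 1625, 1864 and 9135, each at background on all K562 arrays. SIRPA, the receptor of CD47, read 491, 651, 965 and 2355 in KBM5. CD14, the monocyte coreceptor of lipopolysaccharide, was at background on all 8 arrays.

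Genes of other blood lineages were mostly at background. Of 21 measured mast cell and basophil genes, 17 were at background on all arrays. Of 46 lymphoid genes, 37 were, and 19.6% were called, against 32 percent of all genes. Within the lymphoid list CD4 stood out with 3722, 6020, 11059 and 16268 in KBM5 and 30.4, 26, 29.9 and 29 in K562, at least 46-fold higher in KBM5; CD4 is also a protein of monocytes. CD52, a lymphocyte surface protein, was higher in K562, as was LEF1, a factor of T-cell precursors (at least 3.0-fold). The megakaryocyte list of 22 genes had 6 higher in K562 and 2 in KBM5, and 2 of these called genes were at background on all arrays. Its called share was 36.4%, near the 32 percent of all genes and under the 42.3% of the housekeeping controls. The integrin ITGA2B was at background on all 8 arrays. TUBB1, the tubulin of platelets, was above it on the 2 K562 arrays with IM, with 45, 136, 3715 and 4765, and its call was lost in 3 of 11 alternatives. PLEK, pleckstrin of platelets and leukocytes, read 6518, 6930, 21236 and 17051 in KBM5 and 12, 16, 20.03 and 19 in K562. Of the stem and progenitor genes, 9 of 28 were higher in KBM5 and 5 in K562 (50% called), and 14 of the 28 were at background on all arrays. FLI1, RUNX2 and CD38 were above background in KBM5 only. FLI1 read 2336, 2311, 4800 and 5040 in KBM5 and 14, 12, 16 and 13 in K562, and RUNX2 read 1606, 2684, 10605 and 13125 in KBM5 and 51, 62, 61 and 51 in K562. CD34 and PROM1, surface marks of stem cells, were at background on all 8 arrays, and FLT3 was above it on 2 KBM5 arrays.

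The promoters of 4 of the genes above and below are printed here because the motifs of the 2 lineages' factors, or the CG pairs that DNA methylation acts on, can be seen in them. They run from 250 bases before to 50 after the RefSeq start site (assembly GRCh38.p14), 5′ to 3′ on the gene's strand, and the genes were chosen after their values were seen. In KEL, capitals mark the GATA-type motif AGATAA. In PRTN3 and CXCR4, they mark the PU.1-type motif GAGGAAG, which lies on the opposite strand in CXCR4. In KCNH2, described with the OR21 values below, capitals mark every CG.
KEL: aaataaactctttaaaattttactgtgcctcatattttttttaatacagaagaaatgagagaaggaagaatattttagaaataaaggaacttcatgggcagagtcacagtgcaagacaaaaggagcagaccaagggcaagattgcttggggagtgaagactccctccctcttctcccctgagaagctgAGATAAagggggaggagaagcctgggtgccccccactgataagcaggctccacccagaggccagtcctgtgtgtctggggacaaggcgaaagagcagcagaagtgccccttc
PRTN3: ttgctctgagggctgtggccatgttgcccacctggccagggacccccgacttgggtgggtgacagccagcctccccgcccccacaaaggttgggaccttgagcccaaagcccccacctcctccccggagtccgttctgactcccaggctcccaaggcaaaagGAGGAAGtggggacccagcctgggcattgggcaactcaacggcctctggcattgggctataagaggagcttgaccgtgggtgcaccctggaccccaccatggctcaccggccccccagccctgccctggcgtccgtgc
CXCR4: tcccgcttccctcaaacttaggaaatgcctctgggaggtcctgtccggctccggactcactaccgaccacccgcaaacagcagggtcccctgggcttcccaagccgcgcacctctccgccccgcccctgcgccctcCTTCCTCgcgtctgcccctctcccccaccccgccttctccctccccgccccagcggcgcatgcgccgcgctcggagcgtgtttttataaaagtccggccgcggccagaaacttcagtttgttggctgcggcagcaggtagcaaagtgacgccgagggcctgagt
KCNH2: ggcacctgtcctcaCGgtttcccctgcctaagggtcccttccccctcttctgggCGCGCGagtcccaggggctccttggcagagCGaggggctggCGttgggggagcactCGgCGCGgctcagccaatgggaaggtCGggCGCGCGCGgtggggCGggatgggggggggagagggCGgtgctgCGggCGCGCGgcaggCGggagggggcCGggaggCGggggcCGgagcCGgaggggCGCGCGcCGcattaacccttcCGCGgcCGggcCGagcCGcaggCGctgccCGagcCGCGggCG
The windows are chr7:142962314-142962613 (minus strand) for KEL, chr19:840749-841048 (plus strand) for PRTN3, chr2:136118100-136118399 (minus strand) for CXCR4 and chr7:150978272-150978571 (minus strand) for KCNH2. The AGATAA match of KEL starts 62 bases before the start site, and the PU.1-type match lies 88 bases before it in PRTN3 and 114 bases before it in CXCR4.

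The same letters were counted in the promoters of all measured genes, on both strands. Of 14250 measured genes with a RefSeq promoter, 7.6% held AGATAA, against 5.64% of the 408 promoters of genes above background in K562 only and 9.96% of the 241 of genes above background in KBM5 only. GAGGAAG stood in 14.2% of all promoters, 14.7% of the K562 ones and 18.7% of the KBM5 ones. The median number of CG pairs in the 300 bases was 26 for the K562 genes, 19 for the KBM5 genes and 22 for all. Promoters with under 5 CG pairs made up 6.37% of the K562 group and 19.5% of the KBM5 group, against 16.2% of all. Genes above background on all 8 arrays had a median of 27 CG pairs, and genes at background on all 8 had 14. These shares are descriptions of the printed windows and say nothing of binding or methylation, neither of which was measured.

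Surface receptors and adhesion molecules differed in both directions. Of 85 measured cytokine and growth factor receptors, 17 were higher in K562 and 19 in KBM5, and 45 were at background on all arrays. The share called was 42.4%, against 32 percent of all genes and 42.3% of the housekeeping controls. CXCR4, the chemokine receptor that holds cells in the bone marrow, read 14671, 28126, 46784 and 83256 in KBM5 and 49, 35, 45 and 62 in K562, at least 207-fold apart, and its KBM5 values were lowest on the control array and highest with the combination. IL6R read 2370, 1023, 7526 and 5769 in KBM5 and 11, 9.2, 15 and 13 in K562. IL1RAP, a coreceptor of interleukin 1 used to mark leukaemic stem cells of this disease, read 1873, 2097, 1531 and 4074 in KBM5 and 19.7, 14, 11 and 15 in K562. IL17RA read 5700, 10866, 14556 and 19411 in KBM5 and was above background on 2 K562 arrays. The receptors of transforming growth factor beta split: TGFBR2 read 961, 835, 1527 and 2140 in KBM5 and 19, 19, 15 and 19 in K562, and TGFBR3, the coreceptor betaglycan, read 784, 775, 405 and 650.1 in K562 and 11, 22, 15 and 12 in KBM5. These receptors were picked by a wide difference in every pair or after their values were seen. That their arrays separate by line follows from that choice.

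Of 50 measured integrins and adhesion molecules, 14 were higher in KBM5 and 7 in K562 (42% called, against 32 percent of all genes). ITGB2, the shared beta chain of leukocyte integrins, read 1128, 898, 1102 and 963 in KBM5 and 13, 13, 17 and 24 in K562, and ITGA4, the alpha chain that binds VCAM1, read 1305, 1987, 1599 and 1819 and 34, 26, 38 and 54. SELPLG, the ligand of P-selectin, read 1234, 3343, 6172 and 8603 in KBM5. ICAM2 was the clearest case on the other side, with 1104, 1446, 1198 and 1080 in K562 and 99.5, 57, 86 and 54 in KBM5.

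Genes of BCR-ABL1 signalling were called more often than genes at large, 64.2% against 32 percent, and more of them were higher in KBM5 (35 of 81) than in K562 (17). Their background is high, since 67 of the 81 were above background on at least 1 array, and 55.2% of all such genes were called. ABL1 read 2316, 1850, 3149 and 2330 in K562 and 2148, 2203, 4060 and 3567 in KBM5, and BCR read 1442, 1567, 1850 and 1522 and 809, 1432, 1820 and 2542. Neither was called: the log2 differences were -0.28 ± 0.19 (adjusted p = 0.327, limma) and 0.06 ± 0.27 (adjusted p = 0.898). The array does not separate the fusion from the normal genes. The adaptor CRKL, a main substrate of the kinase, read 40736, 38155, 38608 and 36911 in K562 and 3108, 3842, 3854 and 3715 in KBM5, and was 11-fold higher in K562. The transcription factors STAT5A and STAT5B, activated by BCR-ABL1, were 5.4-fold and 6.8-fold higher in K562. PIM1 and PIM2, kinases made from STAT5 target genes, were called higher in K562, and PIM1 read 13456, 10367, 3872 and 2830 in K562 and 4088, 3162, 108 and 122 in KBM5. The call of PIM1 was lost without the treatment block (adjusted p = 0.0824) and that of PIM2 without the OR21 pair (0.0652).

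Several genes of this list were above background in KBM5 alone or higher there. PTPN6, the phosphatase SHP-1, read 5390, 6243, 8724 and 20832 in KBM5 and 29.6, 68, 18 and 49 in K562, at least 51-fold apart. INPP5D, the phosphatase SHIP1, read 2996, 2570, 7043 and 6378 in KBM5 and 152, 326, 224 and 439 in K562. DOK2, an adaptor that restrains Ras, read 1796, 1462, 10624 and 13699 in KBM5 and 37, 113, 29 and 60.2 in K562, and was higher with IM than without in KBM5. LAT2, an adaptor of myeloid and B cells, read 17350, 13615, 9631 and 9808 in KBM5 and 47, 49, 74 and 59 in K562. PIK3CD, the leukocyte form of phosphoinositide 3-kinase, read 1270, 971, 2176 and 1864 in KBM5 and was at background in K562. On the K562 side, beside the adaptor CRKL, the adaptor GAB1 was at least 5.9-fold and the GTPase RRAS2 at least 2.3-fold higher than in KBM5, where both were at background on all arrays.

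Cytoplasmic tyrosine kinases were split, with 7 of 29 higher in K562 and 5 in KBM5 (41.4% called, against 32 percent of all genes). YES1 was above background on all arrays and 7.0-fold higher in K562. PTK2, the focal adhesion kinase, read 699, 536, 501 and 505 in K562 and 98, 63, 75 and 52 in KBM5, while its relative PTK2B read 281, 569, 397 and 266 and 2398, 1632, 7816 and 7236, so the 2 went opposite ways. FES, a kinase of myeloid cells, read 626, 351, 3402 and 1544 in KBM5 and 35, 40.03, 24 and 42 in K562. In the list of protein kinase C, G protein and cyclic nucleotide genes, 17 of 40 were higher in KBM5 and 8 in K562 (62.5% called). GNAI2 was 16-fold higher in KBM5, and PRKCD read 4747, 3584, 6922 and 5789 in KBM5 and 175, 223, 106 and 156 in K562. The regulatory subunit PRKAR2B of protein kinase A read 18387, 12981, 31812 and 24101 in K562 and 309, 189, 113 and 111 in KBM5, whereas the catalytic subunit PRKACB read 43, 63, 87 and 115 and 596, 579, 2067 and 1581, the opposite order.

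**Figure D3:**
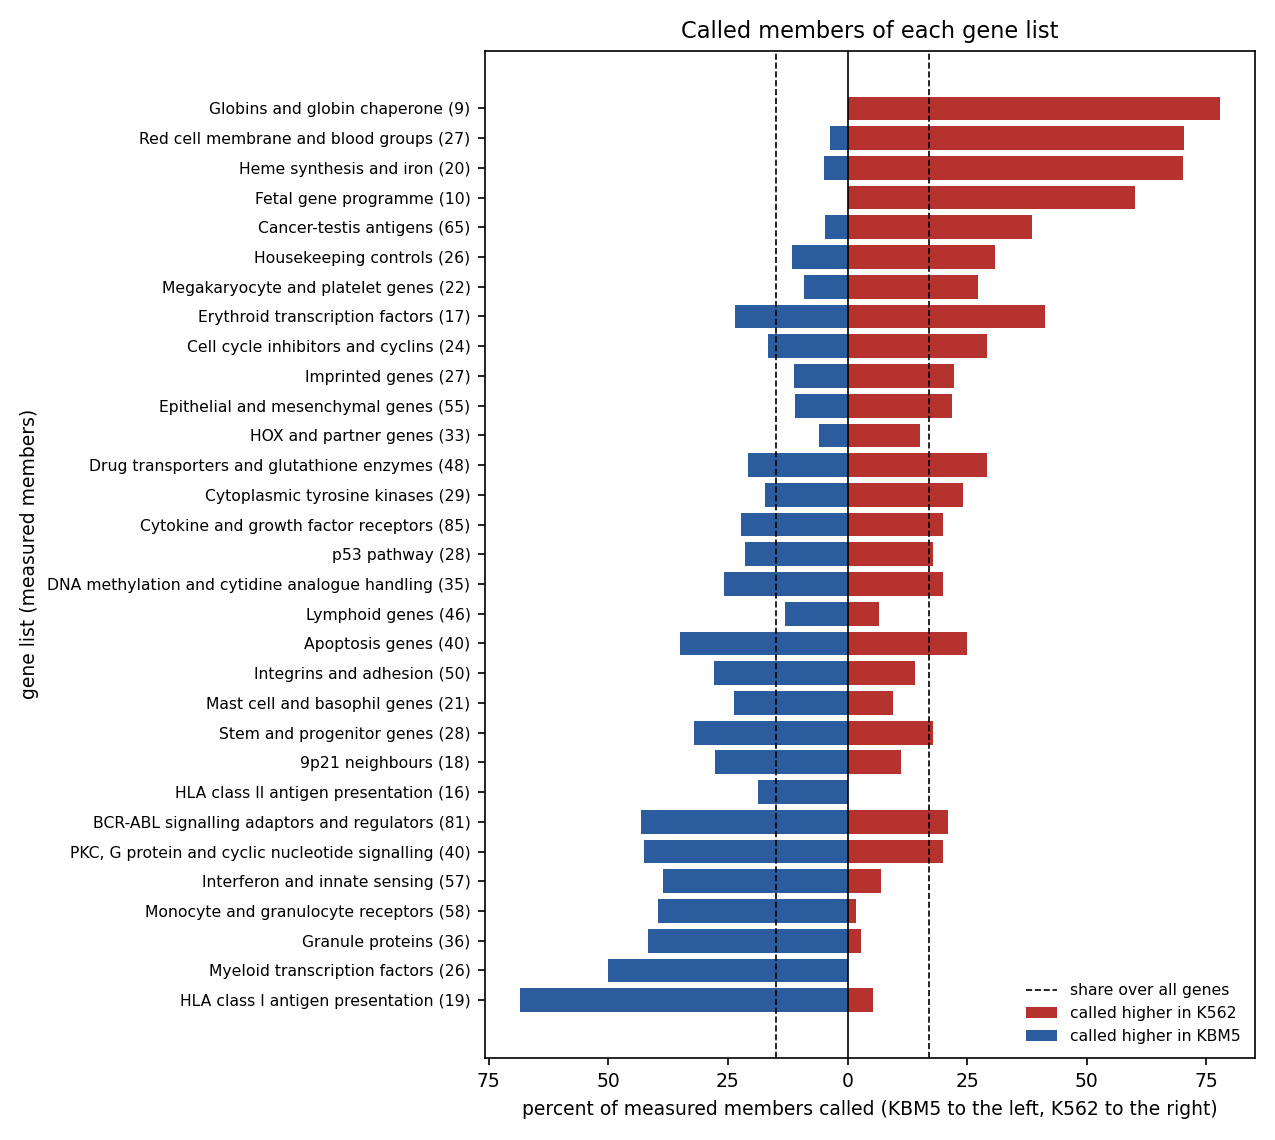
Percent of the measured members of 31 gene lists called higher in K562 (right, red) or in KBM5 (left, blue), with the number of measured members in brackets. Dashed lines mark the shares over all 17687 genes, 17 percent in K562 and 15 percent in KBM5. Globins (7 of 9), red cell membrane (19 of 27) and heme genes (14 of 20) reach farthest to the right, and HLA class I (13 of 19) and myeloid transcription factors (13 of 26) farthest to the left.

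Of 19 measured genes of HLA class I presentation, 13 were higher in KBM5 and 1 in K562, with a median of -1.37 (-1.08 with values raised to background). HLA-C read 1031, 1000, 1277 and 3533 in KBM5 and 41, 38, 33 and 48 in K562, and HLA-E read 488, 963, 2052 and 2241 and 105, 69, 39 and 54. HLA genes are alike in sequence and vary between people, so a probe set can read a relative or miss an allele. B2M, the shared light chain, was measured on all arrays, with 19750, 18215, 20996 and 24615 in K562 and 44398, 48820, 68411 and 85992 in KBM5. PSMB8, a subunit of the immunoproteasome, read 2137, 1722, 410.2 and 853 in KBM5 and 27, 33, 24 and 28 in K562, and its KBM5 values were lower with IM. Of the 16 class II genes, 11 were at background on all arrays and 3 were called (CD74, RFX5 and CTSS), all higher in KBM5.

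Among 57 interferon and innate sensing genes, 22 were higher in KBM5 and 4 in K562, and 9 of these 26 were at background on all arrays. The other 31 were not called. The share called was 45.6%, against 32 percent of all genes and 42.3% of the housekeeping controls. CGAS, the sensor of cytosolic DNA, read 1790, 912, 1063 and 718 in KBM5 and 10.1, 8.1, 10.5 and 15 in K562. NLRP3, the inflammasome sensor, read 1875, 1321, 6397 and 3946 in KBM5 and 36, 32, 42 and 22 in K562. MX2 read 614, 823, 845 and 955 in KBM5 and 13, 24, 26 and 17 in K562. IFITM1, an interferon-induced membrane protein, went the other way, with 204300, 126756, 103537 and 67403 in K562 and 1178, 2711, 1150 and 1418 in KBM5 (log2 difference 6.26 ± 0.34, adjusted p = 3.34e-05, limma).

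Cancer-testis antigens, genes that are silent in most adult tissues outside the germ line, were higher in K562 for 25 of 65 measured genes and in KBM5 for 3. At background on all arrays were 38 of the 65, among them 6 of those called. Called in either direction were 43.1%, against 32 percent of all genes and 42.3% of the housekeeping controls. CTCFL, the germ-line relative of CTCF, read 5163, 7393, 8754 and 8566 in K562 and 23, 25, 19 and 12 in KBM5, at least 34-fold apart. PRAME was on in both lines, with 108838, 116912, 102136 and 99492 in K562 and 2424, 2430, 5628 and 4016 in KBM5. MAGEC1 read 1841, 2441, 1205 and 1072 in K562 and MAGEC2 read 2833, 2446, 3769 and 3388, each at background on all KBM5 arrays. The genes of the opposite direction were PIWIL4, a Piwi protein, with 4865, 4472, 6412 and 6370 in KBM5 and 31, 26, 27 and 22 in K562, XAGE1B, with 4617, 7307, 2958 and 3664 and 52, 147, 46 and 111, and MAEL, which was at background on all arrays.

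Some epithelial genes were above background in K562. EPCAM, the epithelial adhesion molecule, read 8593, 10797, 7907 and 8886 in K562 and 25, 21, 25 and 11 in KBM5, at least 41-fold apart and a log2 difference of 8.84 ± 0.26 (adjusted p = 3.71e-06, limma). The keratin KRT18 was at least 31-fold and KRT19 at least 19.6-fold higher than in KBM5, where both were at background, and KRT8, measured on all arrays, was 37-fold higher. KRT18 read 15706, 13483, 2780 and 3417 in K562, with the 2 arrays with IM below those without it, and KRT19 read 4052, 3926, 4629 and 4415, with no such step. CDH1, the epithelial cadherin, was at background on all 8 arrays. Of the 55 measured epithelial and mesenchymal genes, 12 were higher in K562 and 6 in KBM5. That is 32.7% called, near the 32 percent of all genes. The calcium-binding protein S100A4 read 1497, 833, 5086 and 5261 in KBM5 and 46, 75, 112 and 206 in K562. The homeobox gene HOXB9 read 1841, 1330, 1306 and 1182 in K562 and 22, 27, 15 and 28 in KBM5, and 24 of 33 measured HOX and partner genes were at background on all arrays.

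Genes of cell death and drug handling differed in both directions. Of 40 apoptosis genes, 14 were higher in KBM5 and 10 in K562 (60% called, against 32 percent of all genes). BCL2, which blocks cell death, read 2442, 1244, 648 and 1447 in KBM5 and 91, 61, 61 and 111 in K562, while its relative BCL2L1 read 863, 791, 210.1 and 155 in K562 and 78, 109.6, 65 and 72 in KBM5. The caspase CASP4 read 2031, 1659, 4998 and 5342 in KBM5 and 14, 23, 28 and 30.3 in K562, CASP8 was 11-fold higher in KBM5, and APAF1, the core of the apoptosome, read 1928, 1064, 4829 and 3449 in KBM5 and 162, 139, 203 and 156 in K562. Of 48 drug transporter and glutathione genes, 14 were higher in K562 and 10 in KBM5 (50% called). GPX1, a glutathione peroxidase, read 14551, 6737, 16542 and 21559 in KBM5 and 49.5, 126, 81 and 69 in K562, and AKR1C1, a ketosteroid reductase with near relatives, read 1786, 1543, 5329 and 4801 in K562 and 17, 9.8, 17 and 18 in KBM5. CYP1B1 read 439, 1199, 5163 and 13113 in KBM5 and 22, 18, 22 and 13 in K562.

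For the enzymes that DNA methylation and cytidine analogues depend on, 7 of 35 genes were higher in K562 and 9 in KBM5. The share called was 45.7%, against 32 percent of all genes. DNMT1, the maintenance methyltransferase, was not called (log2 difference 0.04 ± 0.36, adjusted p = 0.958, limma), with 905, 946, 761 and 727 in K562 and 1626, 1613, 399.6 and 409 in KBM5: KBM5 was higher without IM and K562 with it. DNMT3B, a de novo methyltransferase, read 1455, 1184, 314 and 225 in K562 and 65, 86, 19.7 and 42 in KBM5, and TET1, which oxidises methylcytosine, read 383, 322, 245 and 272 and 22, 19, 24 and 12. DCK, the kinase that activates deoxycytidine analogues, was 3.6-fold higher in KBM5. SAMHD1, which breaks down activated nucleotides, read 378, 362, 318 and 381 in K562 and 1627, 957, 17966 and 13151 in KBM5, where the arrays with IM were the higher ones.

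The remaining lists had called members in both directions. The p53 list had 5 of 28 higher in K562 and 6 in KBM5, the cell cycle list 7 and 4 of 24, and the imprinted list 6 and 3 of 27, with DLK1 the clearest of the latter. Their called shares were 39.3%, 45.8% and 33.3%, against 32 percent of all genes and 42.3% of the housekeeping controls. CDKN2A, the cell cycle inhibitor at 9p21, was at background on all 8 arrays, as was its neighbour MTAP. Of the 18 measured genes of this 9p21 list, 5 were higher in KBM5 and 2 in K562 (38.9% called), and 12 were at background on all arrays. HACD4 read 354, 464, 2204 and 2614 in KBM5 and 22, 12, 34 and 16 in K562, and FOCAD was above background on 2 KBM5 arrays. Of 26 housekeeping controls, 8 were higher in K562 and 3 in KBM5, with a median of 0.28. ACTB (-0.53 ± 0.22) and GAPDH (-0.34 ± 0.17) were not called.

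Some of the differences lay side by side in the genome. RefSeq's gene order (used for neighbours only) placed 17665 of the measured genes. Runs of at least 3 neighbours that were all above background in K562 only numbered 6, and 1 such run was found for KBM5. The higher KBM5 backgrounds make the K562 kind easier to reach. The run members SAGE1 and IQCK were only at least 1.07-fold and 1.14-fold above the KBM5 background. The longest held 10 genes, from CT45A1 through 8 other CT45A genes to SAGE1. The CT45A genes are near copies, CT45A8 and CT45A9 had identical values, and their number is therefore no count of separate signals. CT45A10 read 5787, 10423, 6463 and 8784 in K562 and 11, 16, 18 and 13 in KBM5. A run of 5 held MAGEA3, CSAG1, MAGEA2, CSAG3 and MAGEA6, also partly near copies. The alpha-globin run held HBA2, HBA1, HBQ1 and the neighbour LUC7L, and the beta-globin run held HBE1 with the olfactory receptor genes OR51B4, OR51B2 and OR51B5. OR51B4 read 2027, 3588, 7960 and 7667 in K562 and OR51B2 read 254, 402, 267 and 311. The other K562 runs were BMS1P20, ZNF280B and ZNF280A, and VPS35L, KNOP1 and IQCK. In KBM5 the run was FOXP2, MDFIC and TFEC: MDFIC read 1258, 1363, 1586 and 1657 and TFEC, a factor of macrophages, 964, 576, 9991 and 6606.

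Windows of 15 measured neighbours showed where differences gathered over a wider stretch. Apart from the CT45A stretch, with a median of 6.97 (3.44 with values raised to background), the highest median was 3.18 (2.62 with values raised to background) in the window from PI4KA to YDJC, with 9 of 15 genes higher in K562 and 0 in KBM5. It contains CRKL, the substrate named above. Beside CRKL, the lipid kinase PI4KA read 8894, 10324, 22567 and 17660 in K562 and 663, 436, 919 and 982 in KBM5, the vesicle fusion protein SNAP29 read 10888, 11808, 23398 and 22355 and 421, 776, 807 and 1702, and the repressor HIC2 read 1117, 942, 2431 and 1930 and 43, 46, 66 and 41. The 6 genes of this window that were not called were at background on all 8 arrays. A second window nearby, from MRPL40 to SCARF2 (median 1.82, or 1.31 with values raised to background), had 11 of 15 genes higher in K562, among them RANBP1 with 73362, 67724, 32838 and 34686 in K562 and 6029, 5738, 295 and 583 in KBM5. In RANBP1 the KBM5 arrays with IM were far below those without it. A stretch from PLXNA3 to CLIC2 (median 2.13, or 1.18 with values raised to background) had 11 of 15 genes higher in K562, with CLIC2 at 2763, 2966, 3719 and 3919 in K562 and 41, 47, 45 and 41 in KBM5. Copy number was not measured.

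In KBM5 the widest such window was a row of zinc finger genes from ZNF221 to ZNF285, with a median of -1.92 (-0.47 with values raised to background, against -0.33 over all genes), 13 genes higher in KBM5 and 0 in K562. ZNF227 read 377, 546, 1066 and 1189 in KBM5 and 17, 25, 17 and 32 in K562, at least 4.1-fold apart. Of the 15, 4 were at background on all 8 arrays although called, and ZNF222 alone was above background on all 8. A further zinc finger window, from ZNF460 to ZIK1 (median -1.82, or -0.33 with values raised to background), had 11 genes higher in KBM5. Over the whole array 492 genes carry a name of ZNF and a number: 145 were higher in KBM5 and 32 in K562. Among the 244 of them above background on at least 1 array, 96 were higher in KBM5 and 21 in K562, where all genes so measured split 2082 to 2587. This family was counted after the windows were seen.

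**Figure D4:**
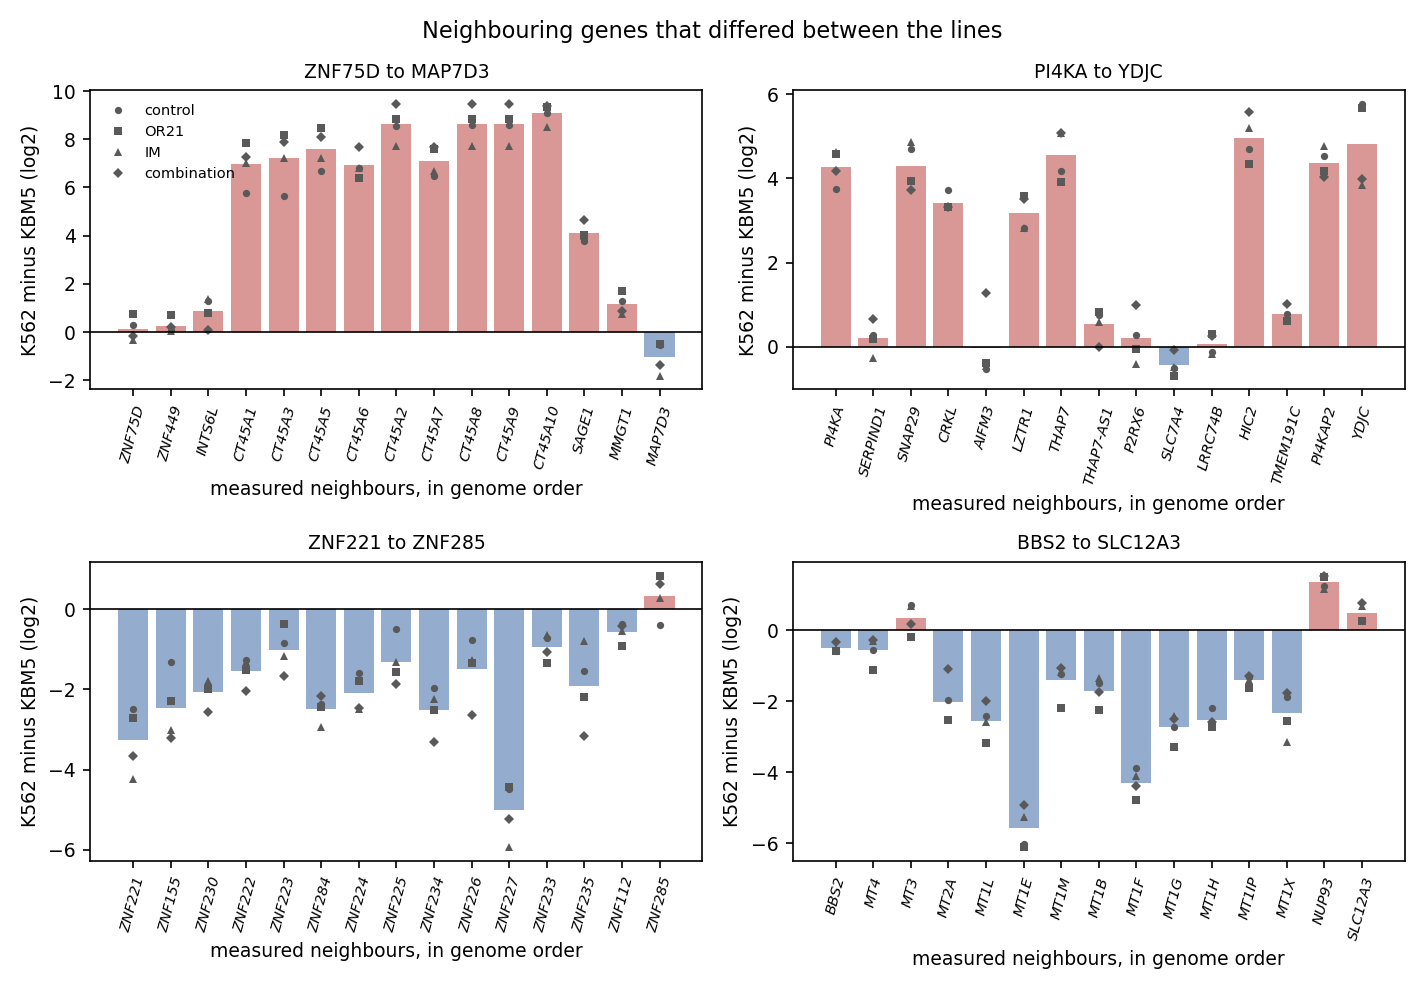
K562 minus KBM5 (log2) for 15 measured neighbours in genome order in each of 4 windows. Bars are the fitted difference (red above 0, blue below), and symbols are the 4 pairs. The CT45A genes reach 6.92 to 9.07, 9 of the 15 genes from PI4KA to YDJC, CRKL among them, were called higher in K562, and 13 of the 15 zinc finger genes from ZNF221 and 10 metallothioneins were called higher in KBM5.

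The third KBM5 window, from BBS2 to SLC12A3 (median -1.70, or -1.41 with values raised to background), holds the metallothionein genes, whose small proteins bind zinc and copper. Of 15 genes, 10 were higher in KBM5, all of them metallothioneins, and 1, NUP93, was higher in K562. MT1E read 4132, 4811, 2276 and 4585 in KBM5 and 64, 69, 59 and 151 in K562, and MT1F read 907, 1726, 881 and 2561 and 61, 62, 51 and 122. MT2A was measured in both lines, with 3359, 6928, 2478 and 16840 in K562 and 13064, 39600, 14302 and 35784 in KBM5, and in each line both arrays with OR21 were above those without it. The MT1 genes are near copies, so part of their signal may be shared. The window from EAF2 to HSPBAP1 (median -1.43, or -0.61 with values raised to background) held CSTA, a cystatin of myeloid and skin cells, with 3845, 5267, 5096 and 7941 in KBM5 and 34, 15, 38 and 26 in K562.

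The distance between the lines changed with IM. Pearson's r between a K562 and a KBM5 array over all genes, whose values share the probe sets, was 0.894 in the control pair and 0.896 in the OR21 pair, and 0.842 and 0.846 in the IM and combination pairs. Within K562 it lay between 0.970 and 0.992, and within KBM5 between 0.951 and 0.987. With values raised to background, 328 genes were at least 4-fold higher in K562 in both pairs without IM and 618 in both pairs with IM. For KBM5 the counts were 320 and 578. Of the K562 genes, 102 reached 4-fold with IM while staying under 2-fold without it, and 22 did the reverse; for KBM5 these counts were 66 and 13. No test was made of these counts.

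**Figure D5:**
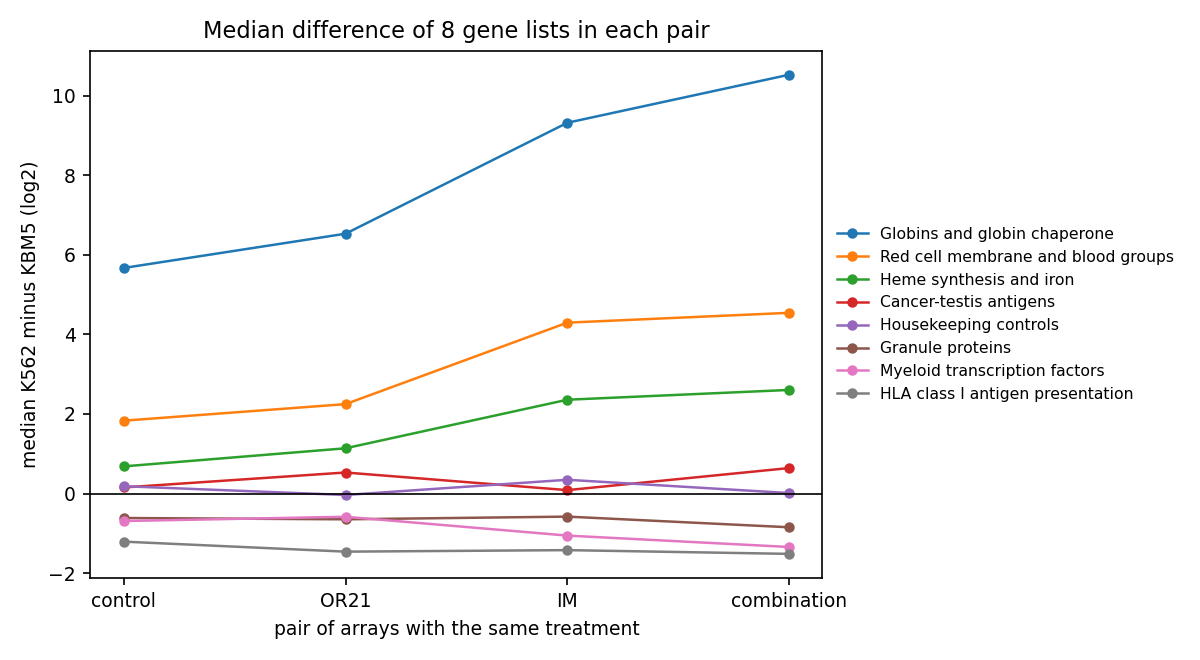
Median log2 difference (K562 minus KBM5) of the measured members of 8 gene lists in each of the 4 pairs. Values are as measured, not raised to background. The globin median runs from 5.67 in the control pair to 10.53 in the combination pair and the red cell membrane median from 1.83 to 4.54, while HLA class I stays between -1.21 and -1.52.

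The globin, heme and membrane lists differed more in the pairs with IM. The globin median was 5.67 in the control pair, 6.53 with OR21, 9.32 with IM and 10.53 with the combination. With values raised to background these were 3.19, 4.59, 7.58 and 8.13. The heme median was 0.68 in the control pair and 2.60 in the combination pair (0.35 and 2.04 with values raised to background). The median of the erythroid transcription factors showed no such step, at 0.40, 0.58, 0.03 and 0.43. That list was split between the lines, so its median does not describe single members. In the same order of pairs, KLF1 differed by 3.43, 5.35, 5.88 and 6.31, and TAL1 by 3.51, 4.59, 6.14 and 5.66. GATA1 differed by 7.16, 7.54, 6.76 and 7.52, without such a step. As measured, the medians of the granule list (-0.62 in the control pair, -0.85 in the combination pair) and of HLA class I moved less. With values raised to background, the HLA class I median was -1.05, -1.04, -0.39 and -0.91 in the 4 pairs. The granule median then equalled that of all genes in each pair, since 19 of its 36 members were at background on all arrays. It therefore does not describe the measured granule genes.

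A few genes changed sides with IM. Of all genes, 6 were at least 2-fold higher in K562 in both pairs without IM and at least 2-fold higher in KBM5 in both pairs with IM, and 3 did the reverse. FCGR2A, a low-affinity IgG receptor, read 28574, 17428, 924 and 685 in K562 and 1266, 2602, 2401 and 6470 in KBM5, so K562 was the higher line without IM and the lower one with it. FCGR2C, a near copy of FCGR2A, gave the same pattern and may share its signal. SLC6A6, the taurine transporter, read 2706, 4014, 398 and 684 and 1221, 1305, 2407 and 3247, and COTL1, an actin-binding protein, 5433, 7014, 1693 and 1122 and 2467, 3042, 6587 and 5986. PRKCB, a protein kinase C, read 7927, 4859, 744 and 578 in K562 and 210.0, 317, 1532 and 1395 in KBM5, and SSBP2 was the last of this group. In the opposite group, UHRF1, the partner of DNMT1 at replicating DNA, read 1531, 2169, 1173 and 1304 in K562 and 7876, 5612, 329 and 622 in KBM5, KIFC1, a mitotic motor, read 1396, 1720, 1815 and 1752 and 3395, 3954, 364 and 694, and the third was the histone gene H4C9. None of the 9 was called as a line difference, and whether the responses to IM differ was not tested.

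Genes silent in 1 line were followed across the drugs. Above background on all K562 arrays and not on the KBM5 control array were 1090 genes. Of these, 434 (39.8%) were above background in KBM5 with OR21, 322 (29.5%) with IM and 448 (41.1%) with the combination. The background of the KBM5 control array, 263, was higher than on the other KBM5 arrays, and it moves with these counts: when a 2-fold rise over the control array was also required, a condition added after the data were seen, the counts were 43, 128 and 182 genes. With background at the 99th percentile, 340 genes were silent on the KBM5 control array, and 11 (3.24%), 113 (33.2%) and 39 (11.5%) of them were above it with OR21, IM and the combination. Of 384 genes on in KBM5 and not on the K562 control array, 34 (8.85%), 43 (11.2%) and 50 (13%) were above background in K562 with OR21, IM and the combination, and 4, 24 and 29 with the 2-fold condition. In KBM5 the OR21 array therefore showed more of these genes than the IM array by the first count and fewer by the other 2. In K562 it showed fewer by both counts given, and also at the 99th percentile, with 3 genes against 54. Crossing that percentile alone does not mean a rise. Of the 113 KBM5 genes above it with IM, 24 were 2-fold over control, and the median change of the 340 was -0.16. Of the 54 K562 genes, 19 were, and the median change of the 255 genes silent at that percentile was -0.02. With OR21, 6 of the 11 KBM5 genes and all 3 K562 genes were 2-fold over control.

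Above background on both OR21 arrays of the silent line, and on neither of its arrays without OR21, were 92 genes in KBM5 and 5 in K562. Both KBM5 arrays with OR21 have lower backgrounds (189 and 194) than those without it (263 and 229), which alone can place a gene in the group, and the 2 counts are therefore not comparable. Of the 92 genes, 27 were at least 2-fold higher with OR21 in 1 or both comparisons, 7 of them in both, and 11 were no higher in at least 1. None of the 5 reached 2-fold. KCNH2, a potassium channel of the heart that many tumours express, read 35, 6376, 31 and 675 in KBM5 and 19124, 27175, 17404 and 18317 in K562. Its printed promoter holds 39 CG pairs in 300 bases and that of RAB13 14, against a median of 22. RAB13, a small GTPase, read 67, 489, 69 and 1307 in KBM5 and 5245, 6093, 8282 and 19569 in K562. SUOX, MARCKSL1, TSPAN14 and PIM2 were further genes of the group, with KBM5 values under 500 on every array. The 5 genes of K562 were BOLA1, TYROBP, ZNF813, USF1 and HELB, whose K562 values all lay between 123 and 230, near background. No test applies to these genes, since each treatment of a line has 1 array.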

How the data were processed

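Expression was measured once in each line and treatment, on 8 one-colour arrays. The files hold linear intensity values per probe set, deposited by the authors in the series matrix; how the scanner output was corrected and normalized, and with which software, is not given in the sources used here, and the array medians lay between 77.8 and 83.3. Of 24351 probe sets, 612 were negative controls and 17709 carried exactly 1 symbol in the platform annotation. The 3739 other non-control probe sets were left unnamed. The brightest probe set of each of 17687 symbols was kept, which decided 20 genes with more than 1.

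The intensities were set on the log2 scale with no further normalization, and line and treatment were fitted together in limma 3.58.1 (R 4.3.3; lmFit and eBayes), with Benjamini-Hochberg adjustment over all genes. The fit leaves 3 residual degrees of freedom and adds 3.765 prior ones. No treatment of a line has a second array. The residual spread therefore holds the differences between the lines in drug response together with any culture or technical variation. These cannot be told apart. The labels give matching treatments to both lines, which is where the pairing comes from. A bound ("at least") sets the bright line's mean log2 intensity against the mean log2 background of the other line's arrays. Tables and figures were made in Python 3.11.15 with pandas 2.3.3, numpy 2.4.6 and matplotlib 3.10.9. Data were simulated from this comparison over 17687 genes, with 200 genes changed and no line difference in the others. There the fit recovered 24% of 2-fold and 96% of 4-fold changes. In the real data 5664 genes were called, so these shares need not hold for them.

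The members and gene lists were chosen with earlier results of these data known. Named were the 15 genes per direction with the largest smallest-pair difference, up to 6 genes per list, 5 genes per direction that turn with IM, the genes of neighbour runs and 6 silenced genes per line. A further 49 genes were named after their values were seen. Promoter sequences come from RefSeq (GRCh38.p14), which matched 14250 genes, and gene order placed 17665 genes and left out 22. The alternatives were no treatment block, quantile normalization, median centring, brighter genes alone, a pseudocount of 16, trend and robust moderation, the mean of probe sets, and each treatment pair left out. Medians with each value raised to background were added after the data were seen.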

Additional observations from a re-analysis of the deposited data

Results flagged for a closer look

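Of 286 values tested for a pair of arrays that stood apart from the other 3, 11 did so, and chance alone flags about 1 in 20 groups. All differences are K562 minus KBM5 on the log2 scale. Among genes higher in K562, the control pair was apart for CRKL (3.71, others 3.31 to 3.32) and for SPARC, a matrix protein (4.51, others 5.87 to 6.08). For LDB1 it was the OR21 pair (3.58, others 2.88 to 2.98). MAGEA6 was lower in the IM pair (3.91, others 5.72 to 6.00), and HK1 in the combination pair (9.64, others 11.23 to 11.38), and for MAGEA6, HK1 and SPARC all KBM5 values are at background, so their differences are not measured on both sides.

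Among genes higher in KBM5, RUNX1, a transcription factor of blood stem cells, was nearest to equal in the OR21 pair (-1.44, others -2.38 to -2.24). The growth factor receptor IGF1R stood apart in the control pair (-2.92, others -3.45 to -3.42), and TAPBP, which loads peptides on HLA class I, in the combination pair (-1.14, others -1.46 to -1.42). The kinase CSK differed most in the IM pair (-3.62, others -2.04 to -1.82), as did KCNAB2 (-6.70, others -6.05 to -5.93). For ALOX5AP it was the combination pair (-8.29, others -7.89 to -7.81). All K562 values of ALOX5AP and IGF1R are at background.

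In 7 genes the arrays with IM moved one way in K562 and the opposite way in KBM5, each line's move being the same in both of its comparisons. The mean change with IM in K562 was -4.81 for FCGR2A, -4.06 for FCGR2C, -3.24 for PRKCB, -2.66 for SLC6A6, -2.16 for COTL1 and -0.56 for SSBP2. KIFC1 changed by only 0.20 in K562 (0.38 without OR21 and 0.03 with it) and moved down in KBM5. Each comparison has 1 array on a side, and the difference between the lines was not tested.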

How the results depend on the processing

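The number of called genes, 5664, was within 1.5 times under all 11 alternatives, from 4303 to 5685. Without the treatment as a replicate block, 4863 genes were called, 4689 of them among the 5664. Of 311 named genes, 280 were called, 253 of these under every alternative that tested them, and none reversed. Many were named because they were called with a wide difference in every pair, and 49 after their values were seen. These counts are therefore high by choice and do not describe genes at large. The fit of brighter genes alone held 8843 genes and so did not test every named gene. Median centring put 55.4% of the calls in K562. Genes at least 4-fold apart in all pairs numbered 239 in K562 and 262 in KBM5; with background at the 99th percentile of the controls 64 and 43, at their median 505 and 507, with a 2-fold limit 774 and 713 and with an 8-fold limit 87 and 120. Genes above background in 1 line only were 224 and 155 at the 99th percentile, and 168 and 89 at the median. Silent K562 genes above background at the 99th percentile were 3 with OR21 and 100 with the combination, and silent KBM5 genes 11 with OR21, 113 with IM and 39 with the combination. With 2-fold over the control array, chosen after seeing the data, they were 4, 24 and 29 in K562 and 43, 128 and 182 in KBM5 (OR21, IM, combination). Called list members fell with brighter genes alone for mast cell (3), stem (8), monocyte receptor (15), interferon (15), 9p21 (4), HOX (4) and imprinted genes (4), because fewer genes were tested, and with a pseudocount of 16 for lymphoid genes (5). With a treatment pair left out, and so fewer arrays, they ranged from 2 to 5 for mast cell, 4 to 8 for lymphoid, 7 to 11 for p53, 15 to 22 for drug transporter and 7 to 9 for housekeeping genes. The lowest counts came without the OR21 pair for mast cell and lymphoid, without IM for p53 and without the combination for drug transporter genes, and without any one of these 3 pairs for housekeeping genes. Below background, no level is measured.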

Other observations

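The window from KCTD18 to TRAK2, with a median difference of -1.50 (-1.12 with each value raised to the background of its array), had 11 of 15 genes higher in KBM5 and 0 in K562. It includes the caspase genes CASP8 (-3.46) and CASP10 (-0.57, not called) and CFLAR, their inhibitor (-1.64, not called). CFLAR differed by 0.33, -0.59, -3.12 and -3.16 in the control, OR21, IM and combination pairs, and CASP10 by 1.18, -0.23, -1.26 and -1.95. K562 was thus the higher line for CFLAR in the control pair. For CASP10 the KBM5 control value, 95, lay under the background of that array, 263, so its difference there is not measured on both sides. Genes of other functions stand beside them, such as the splicing protein PPIL3 (-1.66) and the translation regulator BZW1 (-1.50). The window from VPS35L to REXO5, with a median of 1.82 (-0.12 with values raised to background), had 8 of 15 genes higher in K562 and 0 in KBM5. ACSM3 was at least 89-fold and the retromer-related VPS35L at least 5.0-fold higher than the KBM5 background, and THUMPD1 (2.63) and ERI2 (2.07) were above background on all arrays.

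The window that holds CSTA also holds several genes of the PARP family, which transfer ADP-ribose. PARP14 (-1.84) was above background on all 8 arrays and higher in KBM5. Its neighbour DTX3L was above background on all 4 KBM5 arrays and on no K562 array, and PARP9, the partner of DTX3L, was above background on 1 KBM5 array.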
